A study of Homo sapiens with 3 samples.

Results

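The genes described here are 40 targets of the tumour suppressor p53 other than CDKN1A, the gene of the cell cycle inhibitor p21. They form a list of symbols, picked with earlier results of these arrays known, so that their direction is not independent evidence, and were sorted by function into TNF receptor family members, other apoptosis and survival genes, DNA repair, metabolism and autophagy, cell cycle control, and signalling. Probe sets that the platform annotation assigns to exactly one of these symbols numbered 91 and read 38 of the 40 genes. FDXR, a mitochondrial electron transfer enzyme, and BTG2, an antiproliferative cofactor, had no such probe set and are named only. In all, 33 members passed the filter on dim signals, out of 11783 genes that did so.

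Expression was measured in U2OS cells, a human osteosarcoma line, 5 days after retroviral transduction. The first array carried RNA of cells given stable Set8b, labelled Set8_deltaPIP2, a form of the histone H4 lysine 20 methyltransferase that resists degradation through the ubiquitin ligase CRL4-Cdt2. The second carried RNA of cells given wild-type Set8b, labelled Wt-Set8b, and the third RNA of cells given the empty vector, labelled pMSCV-vector. Every culture was therefore the same line, transduced and harvested on the same schedule, and differed by construct. There was 1 array per construct, so no difference has a replicate check, no p-value is given, and every value describes 2 cultures rather than 2 conditions. The labels do not say whether transduced cells were selected, and in a bulk extract fewer cells of a kind and less RNA per cell cannot be told apart.

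The transcription factor p53 is stabilised after DNA damage and other stress and binds paired half-sites in or near its target genes. Its targets slow the cell cycle, repair DNA, adjust metabolism and antioxidant defence, and sensitise cells to death through surface receptors or mitochondria.

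The promoters were searched for the half-site because the members share p53 as their regulator. RefSeq windows (GRCh38.p14) from 250 bases before to 50 after a start site were held for 32 members, 52 windows in all. Exact matches to the 10-base p53 half-site consensus, which reads the same on both strands, were found in at least one window of 6 members, 18.8%, against 8.07% of 15842 protein-coding genes in the table. Counted by window the shares were 11.5% for the members and 6.21% for all protein-coding genes. The members with a match were FAS, DDB2, SESN1, PLK2, AEN and FDXR. A match is a description of letters and does not show binding, and a window without one says nothing about sites elsewhere, since many p53 sites lie in introns. Below are the windows of the 5 with array values, with the half-site in capitals. FAS lies at chr10:88991181-88991480 on the plus strand, DDB2 at chr11:47214724-47215023 on the plus strand, SESN1 at chr6:109008939-109009238 on the minus strand, PLK2 at chr5:58460037-58460336 on the minus strand and AEN at chr15:88621090-88621389 on the plus strand.
FAS: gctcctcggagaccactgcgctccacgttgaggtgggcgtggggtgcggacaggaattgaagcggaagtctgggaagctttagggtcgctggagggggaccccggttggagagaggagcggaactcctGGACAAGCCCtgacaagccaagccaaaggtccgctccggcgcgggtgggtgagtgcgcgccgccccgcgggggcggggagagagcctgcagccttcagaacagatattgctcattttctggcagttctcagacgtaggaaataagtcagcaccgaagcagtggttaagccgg
DDB2: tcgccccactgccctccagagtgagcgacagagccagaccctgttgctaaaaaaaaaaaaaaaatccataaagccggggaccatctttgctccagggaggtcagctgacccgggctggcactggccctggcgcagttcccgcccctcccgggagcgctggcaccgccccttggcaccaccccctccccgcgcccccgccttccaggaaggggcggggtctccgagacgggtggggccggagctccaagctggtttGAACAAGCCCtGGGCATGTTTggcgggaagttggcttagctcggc
SESN1: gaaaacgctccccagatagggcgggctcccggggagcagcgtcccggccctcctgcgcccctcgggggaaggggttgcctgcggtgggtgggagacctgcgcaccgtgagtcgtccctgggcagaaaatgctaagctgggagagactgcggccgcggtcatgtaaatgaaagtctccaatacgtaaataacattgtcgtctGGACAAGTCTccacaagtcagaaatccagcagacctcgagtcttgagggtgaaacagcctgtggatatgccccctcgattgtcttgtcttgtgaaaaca
PLK2: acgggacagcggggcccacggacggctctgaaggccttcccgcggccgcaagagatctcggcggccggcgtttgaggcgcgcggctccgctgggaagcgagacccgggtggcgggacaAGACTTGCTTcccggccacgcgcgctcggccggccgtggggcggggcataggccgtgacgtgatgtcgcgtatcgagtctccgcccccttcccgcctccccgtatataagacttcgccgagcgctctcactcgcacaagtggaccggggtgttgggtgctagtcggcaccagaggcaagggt
AEN: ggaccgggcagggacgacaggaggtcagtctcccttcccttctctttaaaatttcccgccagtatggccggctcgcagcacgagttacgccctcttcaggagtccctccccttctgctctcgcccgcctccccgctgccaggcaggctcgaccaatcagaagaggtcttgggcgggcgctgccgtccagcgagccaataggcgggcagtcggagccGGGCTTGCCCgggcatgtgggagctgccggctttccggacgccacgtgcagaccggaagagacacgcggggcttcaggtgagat
In DDB2 there were 2 half-sites, GAACAAGCCC from base 6 to base 15 after the start site and GGGCATGTTT from base 17 to base 26. The others had 1 each, ending 113 bases before the start site used in FAS, 40 bases in SESN1, 123 bases in PLK2 and 25 bases in AEN. FDXR held the same 10 letters as AEN, GGGCTTGCCC, ending 2 bases before one of its start sites. Among the 12 members with windows that were at least 2-fold higher with stable Set8b than with vector, 4 held a half-site, and among the 15 that passed the filter and fell short of 2-fold, 1 did. The numbers are small and were not tested.

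The arrays were alike in most general measures. Median deposited signals lay between 38.6 and 42.8, the ratio of 3-prime to 5-prime GAPDH control signal between 1.02 and 1.12, and that of ACTB between 7.33 and 8.0. Hybridisation spike-ins on the stable Set8b array had a median of 0.796 of those on the vector array, against 1.01 on the wild-type Set8b array. Poly-A spike-ins, added before labelling, had medians of 0.467 with stable and 0.441 with wild-type Set8b relative to vector. KMT5A, the gene of Set8, was read by 4 probe sets at log2 differences of -0.76 to 0.90 for stable Set8b over vector and 0.18 to 1.23 for wild-type Set8b over vector, so it does not check the labels. Of 8 mesenchymal and osteoblast markers 7 passed the filter and COL1A2 did not. With stable Set8b over vector FN1 was 2.92-fold and ALPL 2.44-fold higher, and VIM was at 0.02 log2. By their brightest probe sets COL1A1, SPARC and THY1 were at 0.26, 0.21 and 0.31. The probe sets past the filter ranged from -0.89 to 0.78 for COL1A1 and from -0.05 to 0.21 for SPARC. RUNX2 went both ways, with its probe sets past the filter at -0.62, 0.70 and 0.09, so no direction is given. ALPL stood above the filter level on the stable Set8b array alone, at 91.8 against 46.15 with wild-type Set8b and 37.7 with vector. With signals below 50 set to 50, ALPL was 1.84-fold higher over vector. The summed signal of the list was 42706 with stable Set8b, 31491 with wild-type Set8b and 34485 with vector. Of 8 epithelial markers 3 passed the filter, with a summed signal of 515 with stable Set8b, 741 with wild-type Set8b and 623 with vector. EPCAM was 2.55-fold lower with stable Set8b than with vector, while KRT14 and CLDN4, the others past the filter, were 1.47-fold and 1.68-fold higher. Of 6 leukocyte markers 2 passed, with a summed signal of 362 with stable Set8b, 316 with wild-type Set8b and 255 with vector. Those past the filter were CD3D, at 200.2 with stable Set8b, 75.9 with wild-type Set8b and 107 with vector, and CD79A, at 117 with stable Set8b, 184 with wild-type Set8b and 99.7 with vector. PTPRC, CD14 and LYZ read at most 33.0, and KRT19 was at the floor of 7.7 on all 3 arrays. Whether the spike-ins or markers have a part in the results was not tested.

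Many p53 targets stood higher on the stable Set8b array than on both others, across all functions, with ZMAT3, TP53INP1 and FAS at the largest differences over vector. Of the 33 members past the filter, 16 were at least 2-fold higher with stable Set8b than with vector (48.5%), against 5.23% of all genes, and 0 were 2-fold lower, against 4.81% of all genes. The median log2 difference was 0.82 over the members and -0.01 over all genes. Over wild-type Set8b, 17 members were at least 2-fold higher (51.5%), against 4.45% of all genes, with a median of 1.02 beside -0.02 over all genes, and 0 were 2-fold lower, against 4.8% of all genes. Both comparisons use the stable Set8b array, so they are not independent of each other. With wild-type Set8b over vector 0 members were at least 2-fold higher by their brightest probe set, against 1.02% of all genes, and 0 were lower, against 0.653%. The other probe set of PLK3 past the filter was 2-fold higher there, at 1.24 log2. The median was 0.06 beside 0.01 over all genes, and -0.09 beside -0.13 when arrays were centred on their medians instead of quantile normalised. All 33 members had a signal above the filter level on all 3 arrays, so none passed through the stable Set8b array alone.

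**Figure D1:**
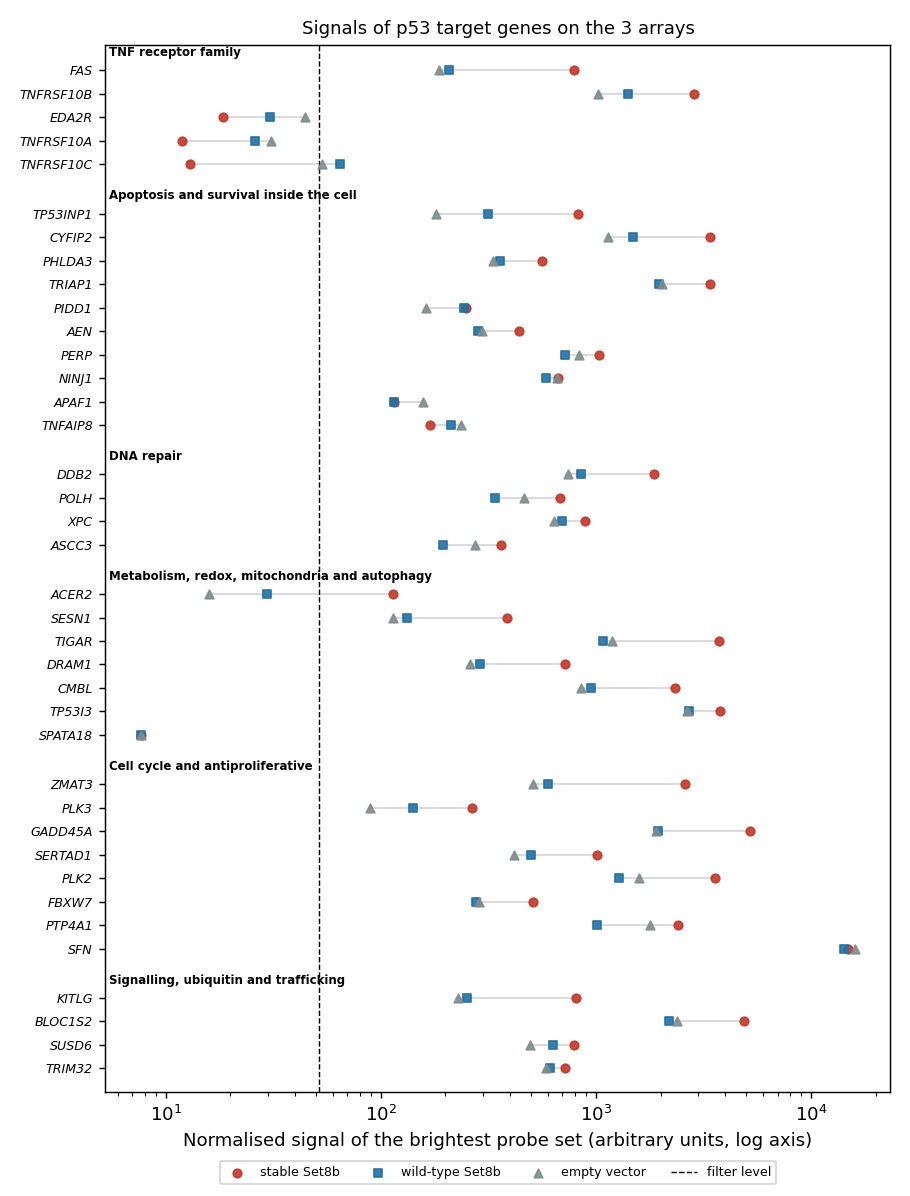
Normalised signal (log axis) of the brightest probe set of each of 38 p53 target genes, by function, with 1 point per array for stable Set8b, wild-type Set8b and empty vector, and the filter level of 51.4 dashed. In 30 of the 33 genes past the filter the stable Set8b point lies furthest right, and 5 genes are below the filter. Signals of different genes come from different probes and cannot be set against each other.

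The stable Set8b array had the highest signal for 30 of the 33 members (90.9%), against 39.2% of all genes past the filter. The other 3 were APAF1, TNFAIP8 and SFN, which are taken up with their groups. Wild-type Set8b lay above vector and below stable Set8b for 19 members (20.5% of all genes did so). That order needs stable Set8b above vector, as in 30 of the 33 members, so it restates that height in part. The distance of wild-type Set8b from vector was mostly small. On that array 29 of the 33 were within 0.5 log2 of vector, as were 86.3% of all genes. The direction of such small differences depends on scaling: 19 of 33 were above 0 for wild-type Set8b over vector, and 13 with arrays centred on their medians. Ranked by the log2 difference of stable Set8b over vector among 11783 genes, 16 members stood among the highest 5% and 3 among the highest 1%.

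**Figure D2:**
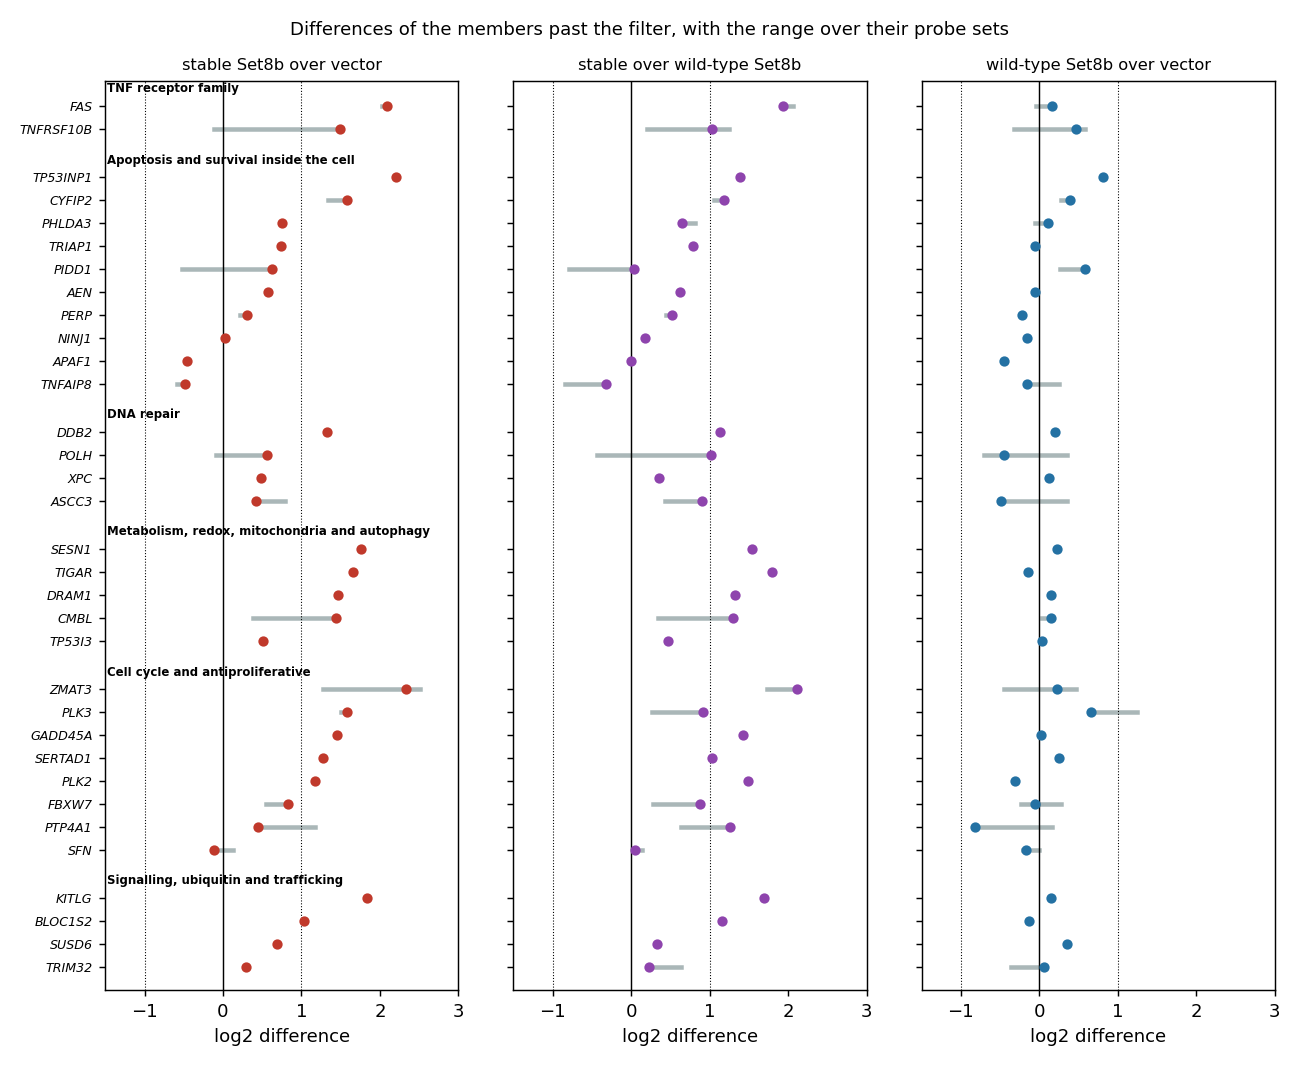
Log2 difference of the 33 members past the filter in each of 3 comparisons (points, brightest probe set) with the range over a gene's probe sets past the filter (grey bars) and dotted lines at 2-fold. Points of the 2 comparisons of stable Set8b lie mostly right of 0, from -0.48 to 2.34 over vector and from -0.32 to 2.12 over wild-type Set8b, and those of wild-type Set8b over vector lie between -0.82 and 0.82.

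Death receptors split into genes with a clear signal and genes near background. FAS, the receptor of FAS ligand that assembles a caspase-activating complex, read 793 with stable Set8b, 208 with wild-type Set8b and 187 with vector. That was 4.24-fold over vector and 3.81-fold over wild-type Set8b, and its 3 probe sets past the filter lay between 2.03 and 2.08 log2 over vector. TNFRSF10B, the TRAIL receptor DR5, read 2866 with stable Set8b, 1407 with wild-type Set8b and 1019 with vector, 2.81-fold over vector. Its probe sets did not go together: 3 lay between 1.34 and 1.49 log2 over vector, and the dimmest of the 4 was at -0.12. Over wild-type Set8b, TNFRSF10B was just past the threshold at 2.04-fold.

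The other receptors of the family were dim. TNFRSF10A, the TRAIL receptor DR4, read 11.9 with stable Set8b, 26.1 with wild-type Set8b and 30.9 with vector. TNFRSF10C, a TRAIL receptor without a death domain that acts as a decoy, read 13.0 with stable Set8b, 64.5 with wild-type Set8b and 53.6 with vector. EDA2R, a receptor of ectodysplasin, read 18.5 with stable Set8b, 30.4 with wild-type Set8b and 44.4 with vector. All 3 had a mean below the filter level of 51.4, and with no detection calls such signals may be background, so no fold of the signals as read is given. With signals below 50 set to 50, TNFRSF10C with stable Set8b was at -0.10 log2 over vector and -0.37 over wild-type Set8b. In the annotation TNFRSF10B, TNFRSF10C, TNFRSF10D and TNFRSF10A follow one another on chromosome 8 with no other protein-coding gene between them. Of these 4 neighbours, TNFRSF10B alone passed the filter, and the decoy receptor gene TNFRSF10D read 17.8 with stable Set8b, 7.7 with wild-type Set8b and 20.8 with vector.

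Among apoptosis and survival genes acting inside the cell, 2 of 10 were at least 2-fold higher with stable Set8b than with vector, and the median was 0.60. TP53INP1, a nuclear protein that promotes p53-dependent death and autophagy, read 829.6 with stable Set8b, 317 with wild-type Set8b and 179.9 with vector. By brightest probe sets it stood furthest above vector with wild-type Set8b of the members past the filter, at 1.76-fold. The other probe set of PLK3 past the filter was higher there, at 1.24 log2. TP53INP1 stood 2.62-fold higher with stable than with wild-type Set8b. CYFIP2, a subunit of the WAVE actin regulatory complex, read 3401 with stable Set8b, 1492 with wild-type Set8b and 1138 with vector. Its differences over vector were 1.58 and 1.34 log2 by 2 probe sets.

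Intermediate differences were found for PHLDA3, a repressor of AKT signalling, and TRIAP1, a small p53-induced survival protein. PHLDA3 read 564 with stable Set8b, 359.7 with wild-type Set8b and 334 with vector, and both of its probe sets were near 0.75 log2 over vector. TRIAP1 read 3391 with stable Set8b, 1961 with wild-type Set8b and 2029 with vector, 1.67-fold over vector. AEN, a nuclease induced by p53, was 1.48-fold higher with stable Set8b than with vector. These 3 genes were within 0.11 log2 of vector on the wild-type Set8b array.

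The other genes of this group differed less from vector, were lower or went both ways. APAF1, the scaffold of the apoptosome, read 115.0 with stable Set8b, 115.3 with wild-type Set8b and 158 with vector, a log2 difference of -0.45 over vector for both forms of Set8b. TNFAIP8, an inhibitor of apoptosis, was at -0.48 over vector and -0.32 over wild-type Set8b, and its other probe set past the filter was at -0.59 and -0.84. PIDD1, a scaffold for caspase-2 activation, went both ways, with its probe sets at 0.62 and -0.53 for stable Set8b over vector, so no direction is given. PERP, a membrane protein of desmosomes, was at 0.30, and NINJ1, which ruptures the plasma membrane of dying cells, was at 0.02 over vector, and at -0.08 with arrays centred on their medians.

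By their brightest probe sets the 4 DNA repair genes were above 0 in both comparisons of stable Set8b, with 1 past 2-fold over vector and 2 over wild-type Set8b. For POLH the direction rests on the probe set. DDB2, which recognises ultraviolet lesions in chromatin, read 1866 with stable Set8b, 853 with wild-type Set8b and 743 with vector, 2.51-fold over vector and 2.19-fold over wild-type Set8b. XPC, the damage sensor that acts with it, read 889 with stable Set8b, 694 with wild-type Set8b and 637 with vector, 1.40-fold over vector. Of the 2 sensors of nucleotide excision repair, DDB2 thus passed 2-fold and XPC did not. POLH, the polymerase that copies past ultraviolet lesions, read 685 with stable Set8b, 339 with wild-type Set8b and 464 with vector. ASCC3, a helicase of alkylation repair, read 364 with stable Set8b, 196 with wild-type Set8b and 273 with vector. In POLH and ASCC3 the wild-type Set8b array was the lowest of the 3, at -0.45 and -0.48 log2 relative to vector, but 1 other probe set of each past the filter was at 0.35, so that order rests on the probe set. The group median was 0.52 over vector and 0.96 over wild-type Set8b. The 4 probe sets of POLH past the filter ranged from -0.08 to 0.56 over vector and from -0.43 to 1.02 for stable over wild-type Set8b.

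Genes of metabolism, redox balance and autophagy had the highest median of the groups with at least 4 genes past the filter. Of 5 measured above the filter, 4 were at least 2-fold higher with stable Set8b over vector and the same number over wild-type Set8b, with medians of 1.47 and 1.32. SESN1, an antioxidant protein that restrains mTORC1, read 385 with stable Set8b, 132 with wild-type Set8b and 114 with vector, 3.39-fold over vector. TIGAR, which lowers fructose-2,6-bisphosphate and so slows glycolysis, read 3754 with stable Set8b, 1083 with wild-type Set8b and 1195 with vector. It was 3.14-fold higher over vector and 3.47-fold higher over wild-type Set8b. DRAM1, a lysosomal membrane protein that promotes autophagy, read 721 with stable Set8b, 289 with wild-type Set8b and 260.2 with vector, 2.77-fold over vector.

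CMBL, a hydrolase related to bacterial carboxymethylenebutenolidase, read 2333 with stable Set8b, 948 with wild-type Set8b and 858 with vector, 2.72-fold over vector by its brightest probe set. Its other probe set past the filter was at 0.39 log2, so the size of this difference depends on the probe set. TP53I3, a quinone oxidoreductase also called PIG3, read 3772 with stable Set8b, 2724 with wild-type Set8b and 2655 with vector. At 1.42-fold over vector it was the lowest of the 5. ACER2, a ceramidase of the Golgi, was dim, at 114.5 with stable Set8b, 29.5 with wild-type Set8b and 16.0 with vector. Its mean was below the filter level, and the stable Set8b array alone stood above that level. With signals below 50 set to 50, ACER2 with stable Set8b was at least 2.29-fold higher than on each other array, a bound that does not cover noise. SPATA18, a regulator of mitochondrial quality, was at the floor of 7.7 on all 3 arrays.

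In the cell cycle group 5 of 8 genes were at least 2-fold higher with stable Set8b over vector and 5 of 8 over wild-type Set8b, with medians of 1.23 and 1.14. ZMAT3, an RNA-binding protein that mediates growth suppression by p53, read 2586 with stable Set8b, 596 with wild-type Set8b and 512 with vector. It had the largest difference of the members past the filter in both comparisons of stable Set8b, 5.05-fold and 4.34-fold, and stood at place 54 of 11783 genes over vector. Its 5 probe sets ranged from 1.73 to 2.12 log2 over wild-type Set8b. For wild-type Set8b over vector they ranged from -0.44 to 0.46.

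GADD45A, a stress sensor that inhibits the mitotic kinase complex of CDK1, read 5219.8 with stable Set8b, 1937 with wild-type Set8b and 1902 with vector, 2.74-fold over vector. The wild-type Set8b array was 0.03 log2 above vector. SERTAD1, a regulator of CDK4 and E2F activity, read 1013 with stable Set8b, 498 with wild-type Set8b and 417 with vector, 2.43-fold over vector. The polo-like kinases PLK2 and PLK3, stress-induced relatives of the mitotic kinase PLK1, differed in how wild-type Set8b stood. PLK2 read 3595 with stable Set8b, 1278 with wild-type Set8b and 1588 with vector, so the wild-type Set8b array was the lowest. PLK3 read 267 with stable Set8b, 142 with wild-type Set8b and 89.6 with vector, so the wild-type Set8b array was in between. For wild-type Set8b over vector its 2 probe sets past the filter were at 0.66 and 1.24 log2. For stable Set8b over vector PLK2 and PLK3 both passed 2-fold, at 2.26-fold and 2.98-fold by their brightest probe sets. Over wild-type Set8b, PLK2 was 2.81-fold higher while PLK3 was 1.89-fold higher by the brightest probe set and at 0.26 log2 by the other past the filter.

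FBXW7, the substrate receptor of a ubiquitin ligase that degrades cyclin E and MYC, read 509 with stable Set8b, 276 with wild-type Set8b and 288 with vector. Its 3 probe sets past the filter lay between 0.55 and 0.82 log2 over vector, short of 2-fold. PTP4A1, a membrane-associated tyrosine phosphatase, read 2417 with stable Set8b, 1010.4 with wild-type Set8b and 1779 with vector by its brightest probe set, 1.36-fold over vector and 2.39-fold over wild-type Set8b. By its 4 probe sets past the filter it lay between 0.44 and 1.17 over vector and between 0.63 and 1.26 over wild-type Set8b. Whether it passed 2-fold in either comparison thus rests on the probe set. For wild-type Set8b over vector these probe sets ranged from -0.82 to 0.16. SFN, the 14-3-3 protein sigma that holds CDK1 in the cytoplasm and marks epithelia, read 14810.5 with stable Set8b, 14275 with wild-type Set8b and 15992 with vector. Its 3 probe sets were between -0.12 and 0.13 log2 over vector. Set against wild-type Set8b, its brightest probe set with stable Set8b was at 0.05, and at -0.24 with values as deposited, so no direction is given.

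The remaining group holds genes of signalling, ubiquitin and trafficking, and 2 of its 4 were at least 2-fold higher over vector. KITLG, the ligand of the receptor KIT, read 813 with stable Set8b, 252 with wild-type Set8b and 228 with vector, 3.57-fold over vector and 3.23-fold over wild-type Set8b. BLOC1S2, a subunit of complexes that position lysosomes, read 4893 with stable Set8b, 2185 with wild-type Set8b and 2394 with vector. At 2.04-fold over vector it was just past the threshold, and it fell short of 2-fold with values as deposited and with arrays centred on their medians. SUSD6, a membrane protein, was 1.61-fold higher over vector. TRIM32, a ubiquitin ligase, was 1.23-fold higher.

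**Figure D3:**
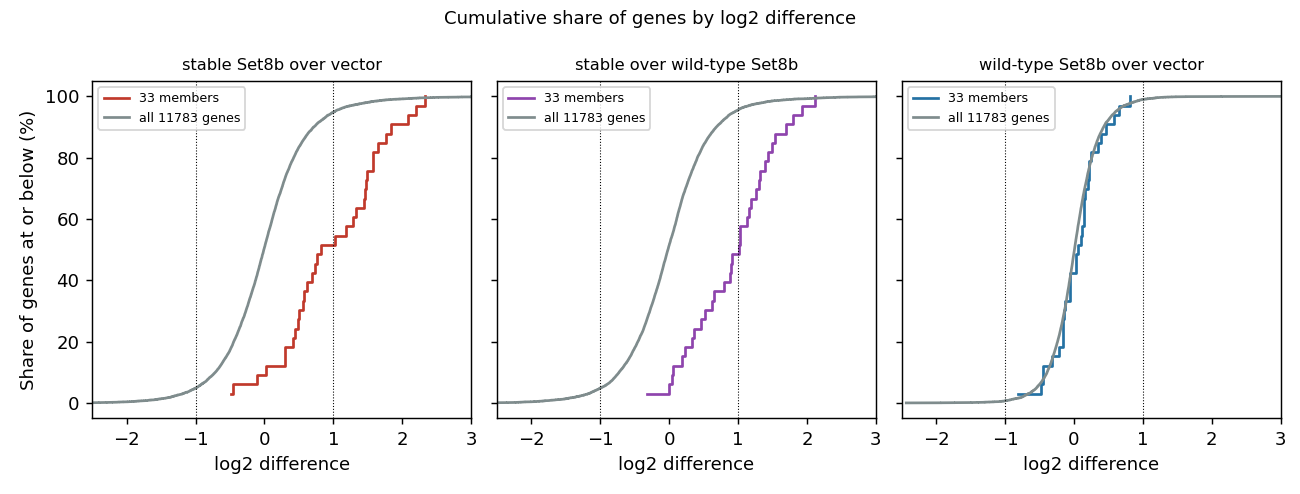
Cumulative share of genes (%) against the log2 difference for the 33 members and for all 11783 genes past the filter, in 3 comparisons, with dotted lines at 2-fold. For stable Set8b over vector and over wild-type Set8b the members' curve lies right of that of all genes, with medians of 0.82 and 1.02, and for wild-type Set8b over vector the curves overlap, with medians of 0.06 and 0.01.

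By its brightest probe set PLK3 passed 2-fold over vector and not over wild-type Set8b. By theirs POLH and PTP4A1 passed it over wild-type Set8b and not over vector, with values given above. Of the 16 called over vector, 6 had several probe sets past the filter, and in 4 of them every such probe set passed 2-fold. The exceptions were TNFRSF10B and CMBL. With 16 members read by several probe sets past the filter, 12 had all of them on one side of 0 over vector. That side was below 0 in TNFAIP8 and above 0 in the rest of the 12. In TNFRSF10B, PIDD1, POLH and SFN the probe sets lay on both sides of 0. The spread between probe sets of a gene, pooled over 5357 genes, was an SD of 0.39 log2 when stable Set8b was set against vector, 0.42 against wild-type Set8b, and 0.36 when wild-type Set8b was set against vector. It covers probe noise on the same arrays and not the spread between cultures.

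Other genes of the p53 pathway were read for comparison, 18 listed and 14 past the filter. Of the 14, 6 were at least 2-fold higher with stable Set8b over vector, against 5.23% of all genes, and 0 lower, against 4.81%. Over wild-type Set8b 4 were higher, against 4.45%, and 0 lower, against 4.8%. The medians were 0.91 and 0.73. For wild-type Set8b over vector 11 were above 0 and 3 below, with a median of 0.21 beside 0.01 over all genes. There 1 was at least 2-fold higher, against 1.02% of all genes. MDM2, the ubiquitin ligase that degrades p53, read 3621 with stable Set8b, 1227 with wild-type Set8b and 1361 with vector, 2.66-fold over vector. MDM4, its partner, was at -0.10 log2 over vector by its brightest probe set, and its 3 past the filter ranged from -0.94 to -0.10. Over wild-type Set8b these ranged from -0.88 to -0.36. The feedback phosphatase PPM1D and cyclin G1 gene CCNG1 were at 0.64 and 0.83 over vector. CDKN1A was 3.48-fold, RRM2B, a subunit of ribonucleotide reductase, 5.79-fold and the stress cytokine GDF15 11.2-fold higher with stable than with wild-type Set8b. With wild-type Set8b over vector CDKN1A was 1.80-fold and RRM2B 1.09-fold higher.

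BAX, which permeabilises mitochondria, was at 1.00 with stable and 0.80 with wild-type Set8b over vector, just under 2-fold in the first by the probe set used, while the other was at 1.16 with stable and 0.95 with wild-type Set8b. It was at 0.20 for stable over wild-type Set8b. PMAIP1, a BH3-only protein also called NOXA, was at 0.01 over vector by one probe set and 0.63 by the other. Over wild-type Set8b these were at -0.16 and -0.17. LIF, a cytokine, was 2.48-fold and the stress sensor SESN2 2.13-fold higher with stable Set8b over vector. BTG1, an antiproliferative relative of BTG2, was at 0.79, PML, of nuclear bodies, at 0.63 and RPS27L, a ribosomal protein relative, at 0.62. The probe sets past the filter ranged from -0.38 to 0.63 for PML and from -0.07 to 2.41 for RPS27L. GDF15 was the gene of this list past 2-fold with wild-type Set8b over vector, at 1.38 log2, and TNFRSF10D was dim. BBC3 and GLS2 were not read by a probe set with that symbol alone.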

How the data were processed

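Per the labels' protocols, biotin-labelled material from Trizol-extracted total RNA was run on Affymetrix chips. The authors deposited one linear intensity per probe set, for 54675 probe sets that include 62 controls, with a common 2% trimmed mean of 250.0. The sources used here do not name their software, and no detection calls were used. The number of arrays limits the precision.

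Control probe sets were left out. Log2 medians of the arrays spanned 0.15, so the 3 arrays were quantile normalised, given a floor of 7.7, their 20th percentile, and log2 transformed. Genes were named from the 41091 probe sets with 1 symbol, while 1801 had several and 11721 none. Of 41097 annotation entries with 1 symbol, 41043 matched the RefSeq table (GRCh38.p14) and 0 names changed. Each gene was read by its brightest probe set, with the highest mean log2, and passed the filter where that mean reached the median of named probe sets, a signal of 51.4. Genes were counted at a 2-fold difference of 2 arrays, with no test. Every member was allowed to be named, with 18 other pathway genes and marker lists. The members and lists were chosen with earlier results of these data known, among them a list of p53 targets that overlaps this one, so their direction is not independent evidence.

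Values were computed in Python 3.11.15 with pandas 2.3.3, scipy 1.17.1 and numpy 2.4.6 and drawn with matplotlib 3.10.9, and the steps were tested on simulated data. Alternatives changed the scaling, floor, filter, probe set rule and threshold.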

Additional observations from a re-analysis of the deposited data

How the results depend on the processing

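Over 9 alternatives of scaling, floor, filter and probe set rule, the members at least 2-fold higher with stable Set8b over vector numbered 13 to 17 and over wild-type Set8b 12 to 18, of 24 to 38 members counted, and the medians ranged from 0.73 to 1.1 and from 0.79 to 1.06. The shares of all genes at least 2-fold higher ranged from 3.44% to 10.3% over vector and from 2.63% to 9.75% over wild-type Set8b. For wild-type Set8b over vector the count was 0 in all 9, beside 0.15% to 7.41% of all genes, and the median ranged from -0.09 to 0.12. At a 3-fold threshold 6 members were higher with stable Set8b over vector (1.63% of all genes were) and 4 over wild-type Set8b (1.33% of all genes were). At 1.5-fold 2 of 33 members were higher with wild-type Set8b over vector, near the share of all genes, 5.57%. Centring arrays on their medians shifted the median of all genes for stable Set8b over vector to -0.12, and the members above 0 then numbered 29 rather than 30. Without the filter the TNF receptor family median was -1.26 over vector and -0.72 over wild-type Set8b, where the 3 dim genes of that family enter. With the mean over probe sets CMBL was at -0.0043 over vector, where its dim probe set also counts. PIDD1 was at -0.53 over vector without probe sets ending in _x_at or _s_at. The changes of single members beyond the pooled probe-set SD came with these 2 probe set rules, since floors and filters leave a bright probe set's value as it is. No paired analysis was possible because each construct had 1 array, and no replicate could be left out for the same reason. Dim signals limit TNFRSF10A, TNFRSF10C, EDA2R, ACER2 and SPATA18.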
